A study of Mus musculus with 4 samples.

Results

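The genes described here are those that mark the macrophages of the mouse liver. The list held 35 genes in 3 classes, namely resident Kupffer cell genes, general macrophage genes, and genes of lipid-associated or recruited macrophages. Every probe set (a group of short probes for one transcript) that the platform annotation ties to exactly 1 of these symbols was taken, which gave 50 probe sets of 34 genes among the 18193 genes that the arrays name. Cd63 had no such probe set. The samples were mature liver of C57BL/6J mice taken 48 h after surgery, which was a sham operation for 2 arrays and partial hepatectomy, the removal of part of the liver, for the other 2. The design text calls the arrays biological duplicates, and the labels do not state whether RNA of several mice was pooled. The p-values therefore measure only the spread between these arrays. Biotin-labelled RNA copies of whole tissue were hybridised, so fewer macrophages and less RNA per macrophage cannot be told apart in any value below.

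Kupffer cells are the macrophages that live within the liver sinusoids, where they take up bacteria, old blood cells and debris from portal blood. They depend on signalling through the receptor Csf1r, and in mice they carry the lectin Clec4f, which few other cells express. After injury, monocytes that carry Ccr2 can enter the liver from the blood in response to the chemokine Ccl2 and become macrophages. Macrophages that take up dying cells and lipid are known to switch on Trem2, Gpnmb, Cd9 and Cd63.

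At 48 h after hepatectomy 2 of these genes passed the test as higher, the scavenger receptor Marco and the lipid receptor Trem2. As lower, 2 passed it, the growth factor receptor Csf1r and the mannose receptor Mrc1. Marco was 11.8 times as high by mean signal, and Trem2 at least 4.47-fold higher. Csf1r and Mrc1 were at 0.615 and 0.598 times their sham signal. Both of these lower calls were lost in several other settings of the test, and Trem2 entered the test only through its hepatectomy signals. Kupffer cell identity genes such as Clec4f, Timd4, Vsig4 and Cd163 did not pass the test in either direction, and neither did the complement genes C1qa, C1qb and C1qc. Several genes of recruited macrophages were high on 1 hepatectomy array and at the sham level on the other.

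Each array had been scaled by the authors to a trimmed mean of 500, and median signals were 46.4 to 57.5. The median absolute log2 difference between arrays was 0.23 within sham, 0.27 within hepatectomy and 0.30 to 0.34 across the groups. The hepatectomy array labelled 1 stood apart from the other 3 in transcripts of fat and adrenal cortex. Adipoq, a fat cell hormone, gave signals of 4.02 and 6.29 on the sham arrays, 574 on hepatectomy array 1 and 56.3 on hepatectomy array 2. Star, the cholesterol carrier of steroid-making cells, gave 66.5 and 72.1 against 3701 and 85.0. Their part in any difference between the hepatectomy arrays was not tested, and values of each hepatectomy array are therefore given for every member with a probe set. The highest signal of 27 bacterial control probe sets was 20.4, which serves here as the level under which a signal is not told from background. Clec4f, Cd5l, Vsig4, Csf1r and the C1q genes lay far above this level on all 4 arrays, so markers of Kupffer cells were present in each liver sample.

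Groups were compared with limma on log2(signal + 8.57), with Benjamini-Hochberg adjustment over 27022 probe sets, and a gene was called at an adjusted p of 0.05. Each gene was represented by its brightest tested probe set. A fit that leaves out 1 array holds a single array in that group, and its p-value then holds only the spread of the other group. A filter on dim probe sets kept 33 of the 34 genes and 43 of their 50 probe sets. Itgam was left out as dim, and Trem2 and Cx3cr1 passed only through their hepatectomy signals. The 2 members called higher and the 2 called lower were each 6.06% of the 33, beside 3.57% of all 12560 genes called higher and 1.09% called lower. By probe set, 3 of 43 were called higher and 3 lower, beside 2.51% and 0.877% of all probe sets. Both hepatectomy arrays lay above both sham arrays for 9 of 33 members and below both for 9 (27.3% each), beside 28.1% and 23.2% of all genes, so these counts were near the background. An unadjusted p under 0.05 was reached by 10 of 33 members, beside 19.9% of all genes tested (2502 of 12560), and the counts at that p given below are to be read against this share. Counts of genes called in the lists below are likewise to be read against the 3.57% and 1.09%.

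The classes differed in their medians. The median log2 fold change (hepatectomy minus sham) was -0.09 over the 8 resident Kupffer cell genes, -0.10 over the 18 general macrophage genes and 1.07 over the 7 lipid-associated or recruited genes, beside 0.02 over all genes tested. With Trem2 at its lower bound the last median was 1.07 as well. With Itgam added back it was 1.02 over 8 genes. On the hepatectomy arrays taken singly this class stood 2.01 above the sham mean on array 1 and 0.54 on array 2, so the size of its median rested largely on array 1. The resident class gave -0.10 and -0.02, and the general class -0.03 and -0.14. The difference between the classes has no test here.

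**Figure D1:**
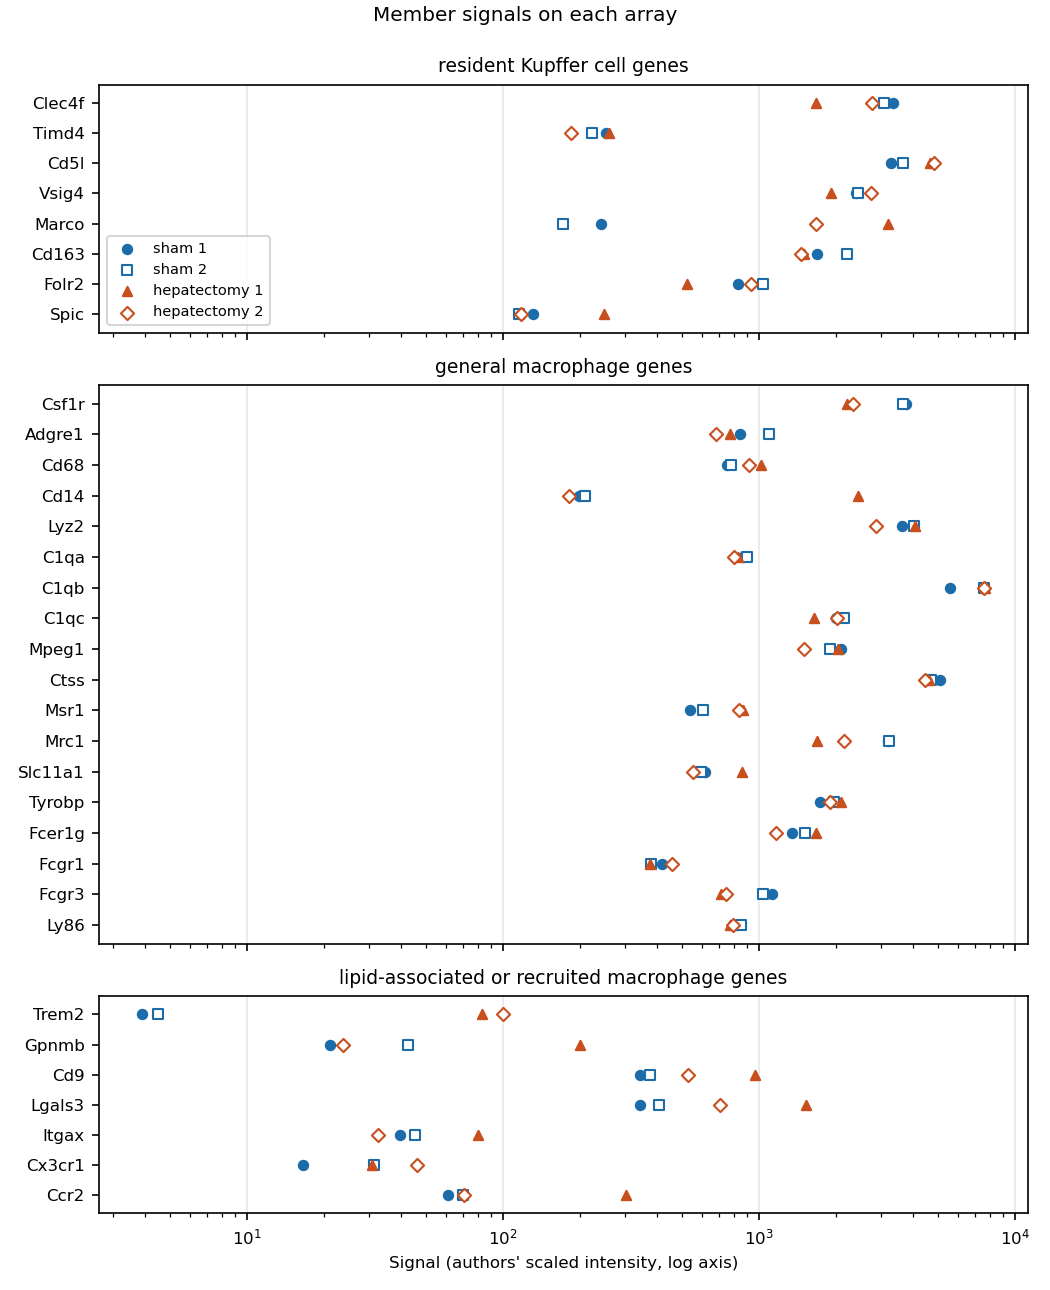
Signal of each tested member on each of the 4 arrays (log axis, the authors' scaled intensity), by class, with sham arrays as circles and squares and hepatectomy arrays as triangles and diamonds. Marco and Trem2 are far higher on both hepatectomy arrays, while Cd14, Gpnmb and Ccr2 are high on hepatectomy array 1 only.

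**Figure D2:**
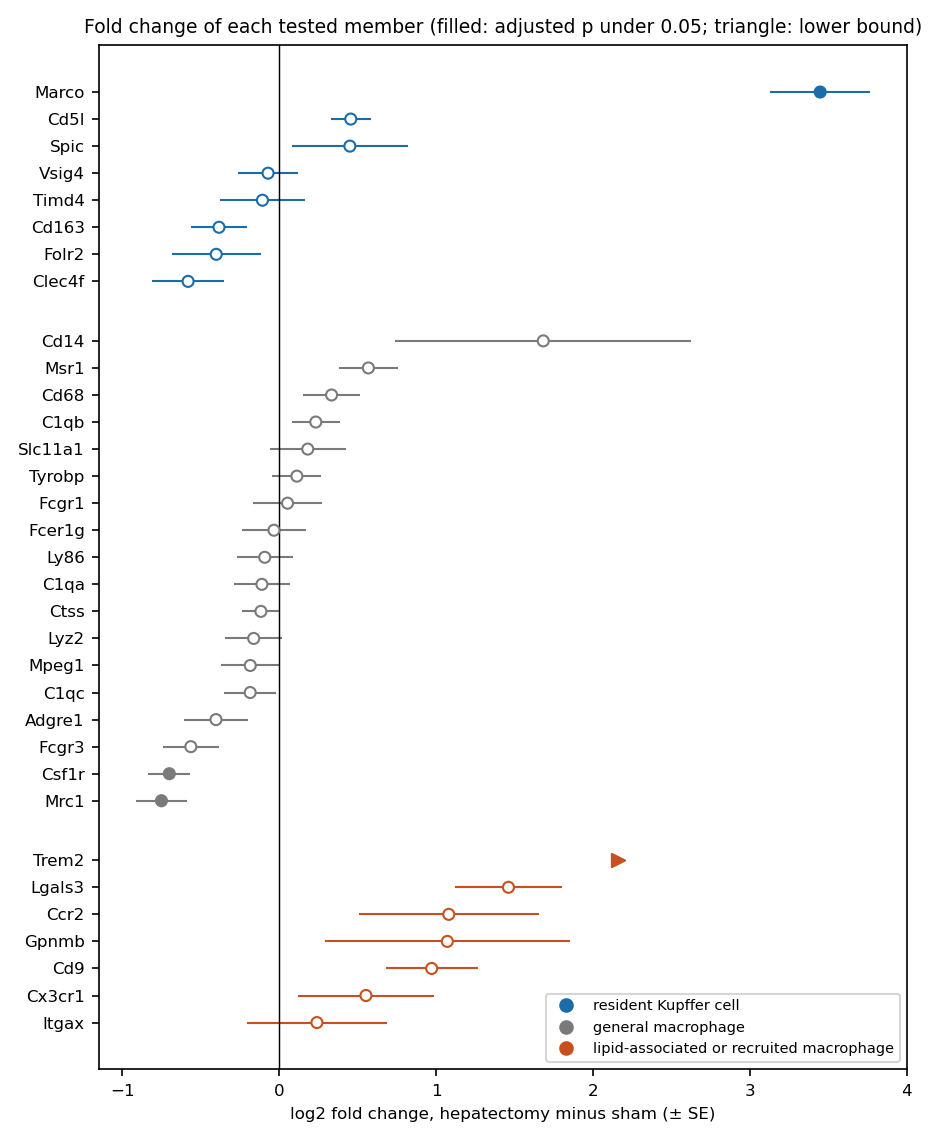
Log2 fold change of each tested member, hepatectomy minus sham, with its standard error as a bar, for 2 arrays in each group. Filled points are called, and these are Marco at 3.45, Csf1r at -0.70 and Mrc1 at -0.75, while Trem2, under the control level on both sham arrays, is drawn as a triangle at its lower bound of 2.16 with no bar.

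Marco is a scavenger receptor with a collagen-like stalk that binds bacteria and particles. It gave 241 and 172 on the sham arrays against 3194 and 1669.8 on the hepatectomy arrays. Each hepatectomy signal was well above each sham signal, and array 1 was the higher. The means were 207 ± 48.9 and 2432 ± 1078 (SD, n = 2), a log2 fold change of 3.45 ± 0.32 (SE) with an adjusted p of 0.00145. The second probe set of the gene gave 46.4 and 52.8 against 449 and 456, a log2 fold change of 2.99 ± 0.26 with an adjusted p of 0.00121. Both probe sets therefore gave the same call. Marco rose by a log2 difference of 2.98 without hepatectomy array 1 and by 3.91 without array 2.

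Trem2 is a receptor for lipids and cell debris that signals through the adaptor Tyrobp. It gave 3.88 and 4.49 on the sham arrays, both under the control level, and 82.7 and 100.5 on the hepatectomy arrays. Both hepatectomy arrays were high, and array 2 was the higher. The means were 4.18 ± 0.425 and 91.6 ± 12.5 (SD, n = 2), and against the control level of 20.4 the gene was at least 4.47-fold higher. The adjusted p was 0.00761. Without either hepatectomy array its mean fell under the filter and it was not tested. Against the control level it was at least 4.93-fold higher on hepatectomy array 2 and 4.06-fold higher on array 1. It passed the filter only through its hepatectomy signals, and with no filter on dim probe sets limma called it as well. A second probe set of Trem2 stayed between 0.988 and 1.91 on all arrays, under the control level, and could not be tested. Tyrobp, the adaptor, gave 1726 and 1959 against 2088 and 1896 and did not pass the test (0.11 ± 0.16, adjusted p 0.79).

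Csf1r is the receptor for the growth factors Csf1 and Il34. It gave 3761 and 3651 on the sham arrays against 2216 and 2339 on the hepatectomy arrays. The groups did not overlap, and the arrays within each group lay close together. The means were 3706 ± 77.6 and 2278 ± 86.6 (SD, n = 2), with a log2 fold change of -0.70 ± 0.13 and an adjusted p of 0.0317. A second probe set was called as well (-0.91 ± 0.17, adjusted p 0.0289), and the third, with signals of 532 and 620.4 against 329 and 408, was not (-0.64 ± 0.22, adjusted p 0.197). The call was lost without sham array 1 (adjusted p 0.217), sham array 2 (0.14) or hepatectomy array 1 (0.0609), with log2 fold changes of -0.68, -0.72 and -0.66.

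Mrc1, the mannose receptor CD206, takes up glycoproteins and is made by sinusoidal endothelium as well as macrophages. It gave 3201 and 3223 on the sham arrays against 1690.0 and 2148 on the hepatectomy arrays. Both hepatectomy arrays were lower, array 1 more so. The means were 3212 ± 15.3 and 1919 ± 324 (SD, n = 2), with a log2 fold change of -0.75 ± 0.16 and an adjusted p of 0.0494. This value lies just inside the threshold, and the call was lost without sham array 1 (adjusted p 0.261), sham array 2 (0.206) or hepatectomy array 1 (0.109). Of 14 sinusoidal endothelial markers, limma called 0, with 3 at an unadjusted p under 0.05, close to the 19.9% of all genes. Their median log2 fold change was -0.28, and their summed signal was 19152 and 20136 on the sham arrays against 14284 and 17565 on the hepatectomy arrays. Log2 fold changes were below 0 for 11 of the 14 and above 0 for 3, Pecam1 (0.34), Tek (0.20) and Cdh5 (0.14). Dnase1l3, a secreted nuclease of that endothelium, had the smallest adjusted p of the 14 (0.0826 in limma). It gave 3149 and 3195 against 1846 and 2296 (-0.62 ± 0.16). The part of endothelial RNA in the Mrc1 signal was not tested.

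The 250 bases before the annotated start are shown for 3 of the 4 called genes, 2 higher and 1 lower (that of Csf1r is not printed here), because macrophage genes are commonly bound by the factor PU.1, whose core motif is GAGGAA. The sequences are those of RefSeq on GRCm38.p6, written in the direction of the gene, and capitals mark the motif as GAGGAA or, where it lies on the opposite strand, as TTCCTC. Marco is at chr1:120505025-120505274 on the minus strand, Trem2 at chr17:48346151-48346400 on the plus strand and Mrc1 at chr2:14229164-14229413 on the plus strand.
Marco: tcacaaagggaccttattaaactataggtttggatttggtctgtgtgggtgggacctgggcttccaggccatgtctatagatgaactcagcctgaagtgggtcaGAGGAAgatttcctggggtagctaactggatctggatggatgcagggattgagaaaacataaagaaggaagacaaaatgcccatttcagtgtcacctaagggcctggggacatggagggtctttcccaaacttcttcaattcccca
Trem2: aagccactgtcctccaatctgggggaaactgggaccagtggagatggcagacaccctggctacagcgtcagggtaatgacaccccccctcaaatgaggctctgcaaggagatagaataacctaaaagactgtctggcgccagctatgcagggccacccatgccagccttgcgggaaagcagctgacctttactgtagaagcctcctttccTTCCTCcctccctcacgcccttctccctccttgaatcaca
Mrc1: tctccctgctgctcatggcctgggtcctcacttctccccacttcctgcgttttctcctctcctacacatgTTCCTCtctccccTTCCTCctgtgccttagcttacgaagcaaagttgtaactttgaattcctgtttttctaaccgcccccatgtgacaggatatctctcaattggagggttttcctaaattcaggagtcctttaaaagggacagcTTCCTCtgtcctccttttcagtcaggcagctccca
The motif starts 146 bases before the start of Marco, and on the opposite strand 40 bases before that of Trem2 and 180, 167 and 35 bases before that of Mrc1. It was thus found before called genes that moved in opposite directions. Csf1r was not among the members found with it. Not every member had a promoter to search, so this does not show that the motif is absent before Csf1r. Of the 34 members, 28 had a promoter in the RefSeq table, and 13 of these (46.4%) held GAGGAA on either strand in this window, beside 23.3% of 32851 promoters and 25.9% of 27025 genes. By class these were 3 of 8 resident Kupffer cell genes, 8 of 12 general macrophage genes and 2 of 8 lipid-associated or recruited genes. The motif TCACGTG, bound by TFE and MITF factors of lysosomal genes, was in 0 of the 28 windows, beside 3.13% of all promoters. A match says only that these letters are in the window.

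Among the other resident Kupffer cell genes none was called, and 3 of the 8, Marco included, had an unadjusted p under 0.05. Clec4f, the lectin that defines mouse Kupffer cells, gave 3349 and 3087 on the sham arrays against 1671 and 2757 on the hepatectomy arrays. Both hepatectomy signals were the lower, array 1 by 0.94 on the log2 scale and array 2 by 0.22, and the test was not passed (-0.58 ± 0.23, adjusted p 0.25). Without hepatectomy array 2 the log2 fold change of Clec4f was -0.94. Timd4, a phosphatidylserine receptor of long-lived Kupffer cells, gave 253 and 222 against 261 and 184. Its groups overlapped (-0.11 ± 0.27, adjusted p 0.894). Vsig4, a complement receptor, gave 2401 and 2434 against 1921 and 2756 and also overlapped (-0.07 ± 0.19, adjusted p 0.901).

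Cd5l, a secreted inhibitor of macrophage death, gave 3283 and 3649 on the sham arrays against 4679 and 4826 on the hepatectomy arrays. Both hepatectomy signals were higher and close to each other, with a log2 fold change of 0.46 ± 0.13 and an adjusted p of 0.115. Cd163, the scavenger receptor for haemoglobin bound to haptoglobin, gave 1694 and 2220.3 against 1507 and 1461. Both hepatectomy arrays were the lower, the sham arrays lay apart from each other, and the test was not passed (-0.38 ± 0.18, adjusted p 0.336). Folr2, a folate receptor, gave 830.0 and 1038 against 524 and 936. Spic, a transcription factor of haem-handling macrophages, gave 131 and 116 against 248 and 118. For Folr2 only hepatectomy array 1 was low, and for Spic only hepatectomy array 1 was high (adjusted p 0.547 and 0.617). Across the 8 genes the summed signal was 12182 and 12938 on the sham arrays against 14005.5 and 14707.5 on the hepatectomy arrays. The difference came from Marco, since without it the sums were 11941 and 12766 against 10812 and 13038, which overlapped.

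The general macrophage genes lay on both sides of the sham level, with log2 fold changes above 0 for 7 and below 0 for 11 of 18. Adgre1, the F4/80 antigen, gave 841 and 1093 on the sham arrays against 772 and 678 on the hepatectomy arrays (-0.40 ± 0.20, adjusted p 0.383). Cd68, a lysosomal membrane protein, gave 753 and 779 against 1025 and 914 (0.33 ± 0.18, adjusted p 0.412). In neither gene did the groups overlap, and they lay in opposite directions. Lyz2, the lysozyme of myeloid cells, gave 3639.6 and 4036 against 4071 and 2879, with overlapping groups (-0.16 ± 0.18, adjusted p 0.729).

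The 3 chains of C1q, the starter of the classical complement pathway, are made in liver mainly by macrophages. C1qa gave 864 and 898 on the sham arrays against 828 and 803 on the hepatectomy arrays (-0.11 ± 0.18, adjusted p 0.822). C1qb gave 5579 and 7573 against 7680.3 and 7604 (0.23 ± 0.15, adjusted p 0.515). C1qc gave 1994 and 2145 against 1642 and 2013 (-0.18 ± 0.16, adjusted p 0.651). All 3 fold changes were thus small and of differing sign, and the difference in C1qb came from the lower sham array. The other probe sets of C1qb gave log2 fold changes of 0.10 ± 0.17 and -0.04 ± 0.20.

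Among receptors for uptake, Msr1, the class A scavenger receptor, gave 539 and 607 on the sham arrays against 869 and 836 on the hepatectomy arrays. Both hepatectomy signals were higher (0.57 ± 0.19, adjusted p 0.174), and 2 further probe sets gave 1.04 ± 0.37 and 0.87 ± 0.31 while a dimmer one gave -0.17 ± 0.36. Fcgr3, a low-affinity receptor for IgG, gave 1123 and 1037 against 709.7 and 745. Both hepatectomy signals were lower (-0.56 ± 0.18, adjusted p 0.151). Fcgr1, the high-affinity receptor for IgG, gave 417 and 381 against 375 and 457, and the adaptor of these receptors, Fcer1g, gave 1344 and 1518 against 1669 and 1167. Both overlapped between groups, with log2 fold changes of 0.05 ± 0.22 and -0.03 ± 0.21.

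The remaining genes of the class have roles inside phagosomes, in lysosomes and in sensing. Mpeg1, a pore-forming protein of phagosomes, gave 2098 and 1897 against 2046 and 1505, and the lysosomal protease Ctss gave 5118 and 4716 against 4606 and 4457. Slc11a1, which exports metal ions from phagosomes, gave 617 and 595 against 857 and 552, and Ly86, a partner of a Toll-like receptor relative, gave 818 and 852 against 772 and 793. None passed the test, with log2 fold changes of -0.18 ± 0.19, -0.12 ± 0.12, 0.18 ± 0.24 and -0.09 ± 0.18.

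Cd14, the co-receptor for bacterial lipopolysaccharide, was the general macrophage gene that differed most between the hepatectomy arrays. It gave 199 and 209.7 on the sham arrays, 2445 on hepatectomy array 1 and 182 on hepatectomy array 2. The first hepatectomy array was 13.4 times the second, which lay under both sham arrays. The log2 fold change was 1.68 ± 0.94 with an adjusted p of 0.433. It was -0.16 without hepatectomy array 1 and 3.53 without array 2, so the sign of the difference rested on array 1.

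The hepatectomy arrays also lay apart in the lipid-associated or recruited class, where the median absolute log2 difference between the hepatectomy arrays was 1.11, beside 0.24 over all genes tested and 0.17 between the sham arrays of the class. Ccr2, the receptor by which monocytes follow Ccl2, gave 61.2 and 70.2 on the sham arrays against 303 and 70.5 on the hepatectomy arrays. Gpnmb, a glycoprotein of lipid-laden macrophages, gave 21.2 and 42.7 against 199.7 and 23.8. Itgax, the integrin CD11c, gave 39.8 and 45.2 against 79.9 and 32.5. In all 3 genes hepatectomy array 1 was the highest of the 4 arrays and array 2 lay within or below the sham range or, for Ccr2, 0.09 above the sham mean on the log2 scale. Their log2 fold changes were 1.08 ± 0.57, 1.07 ± 0.78 and 0.24 ± 0.45, none past the test (adjusted p 0.407, 0.561 and 0.85). The other probe sets of Ccr2, with signals up to 41.9, and of Gpnmb, with signals up to 47.8, were too dim to test.

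Lgals3 and Cd9 were higher on both hepatectomy arrays. Lgals3, the lectin galectin-3, gave 343 and 406 on the sham arrays against 1534 and 708 on the hepatectomy arrays (1.46 ± 0.34, adjusted p 0.0625). Cd9, a tetraspanin that many cell types carry, gave 345 and 376 against 964 and 529 (0.97 ± 0.29, adjusted p 0.136). Lgals3 stood 2.01 above the sham mean on array 1 and 0.91 on array 2, and Cd9 was likewise the higher on array 1, with 0.54 on array 2. Both were called without hepatectomy array 2 and neither without array 1.

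The last genes of the class were dim. Cx3cr1, the fractalkine receptor of patrolling monocytes and some tissue macrophages, gave 16.6 and 31.5 on the sham arrays against 31.0 and 46.4 on the hepatectomy arrays (0.55 ± 0.44, adjusted p 0.6). It was the single member of its class other than Trem2 that was higher on hepatectomy array 2 than on array 1. Itgam, the integrin CD11b, gave 22.4 and 16.8 against 23.6 and 18.4, about the control level, and was not tested.

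**Figure D3:**
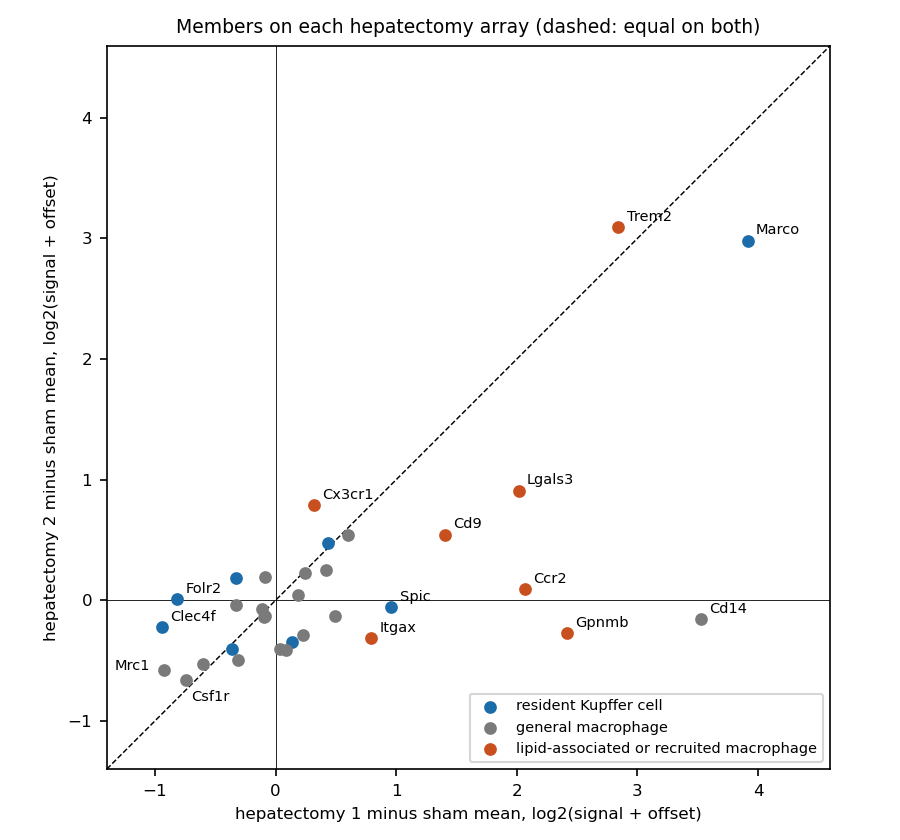
Difference of each tested member from the sham mean on hepatectomy array 1 (horizontal) and on hepatectomy array 2 (vertical), both in log2(signal + 8.57), with the dashed line marking equal values on both. Marco and Trem2 (whose sham signals lie under the control level) are high on both axes, while Cd14 (3.53 and -0.16), Gpnmb (2.41 and -0.27) and Ccr2 (2.07 and 0.09) lie far to the right near 0 on the vertical axis.

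Across the 33 members tested, 7 stood at least 1 log2 unit above the sham mean on hepatectomy array 1 and 2 on array 2, namely Marco and Trem2. Of all 12560 genes tested, 1163 did so on array 1 and 698 on array 2, so the count on array 2 was near the background. The 7 on array 1 were Marco, Cd14, Trem2, Gpnmb, Cd9, Lgals3 and Ccr2. Markers of other cells also differed between these arrays. The 8 monocyte markers tested summed to 10375 and 10007 on the sham arrays, 15533 on hepatectomy array 1 and 12539.9 on array 2, most of it from Fn1, which hepatocytes also make. Without Fn1 the other 7 summed to 793 and 1135 against 4861 and 1917. In this list 1 gene, S100a6, was called higher (1.99 ± 0.30, adjusted p 0.0124), a call lost without sham array 1 (adjusted p 0.0963). The 6 neutrophil markers tested, of 13 with a probe set, summed to 1035 and 735 against 26013 and 16516. Of the 6, 4 were called higher, Lcn2, S100a9, Prtn3 and S100a8, and these 4 were high on both hepatectomy arrays. Csf3r, which was not called, gave 34.6 and 33.9 against 77.4 and 27.8. Lcn2, which hepatocytes also make, supplied 15286 and 11858 of the hepatectomy sums. Among granule genes, Prtn3 gave 11.5 and 57.6 against 602 and 1015. Ngp, Camp, Ltf and Mpo, also granule genes, stayed under the control level on all arrays. The fat cell and adrenal markers summed to 12642 and 12768 against 33903 and 12376, with 0 of 10 called and 3 at an unadjusted p under 0.05 in limma. Most of these sums was Pck1, which hepatocytes make, and without it the other 9 genes summed to 386 and 271 against 21325 and 478, or 64.9 and 1.46 times the sham mean. Whether RNA of such cells contributed to the member genes that were high on array 1 was not tested.

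**Figure D4:**
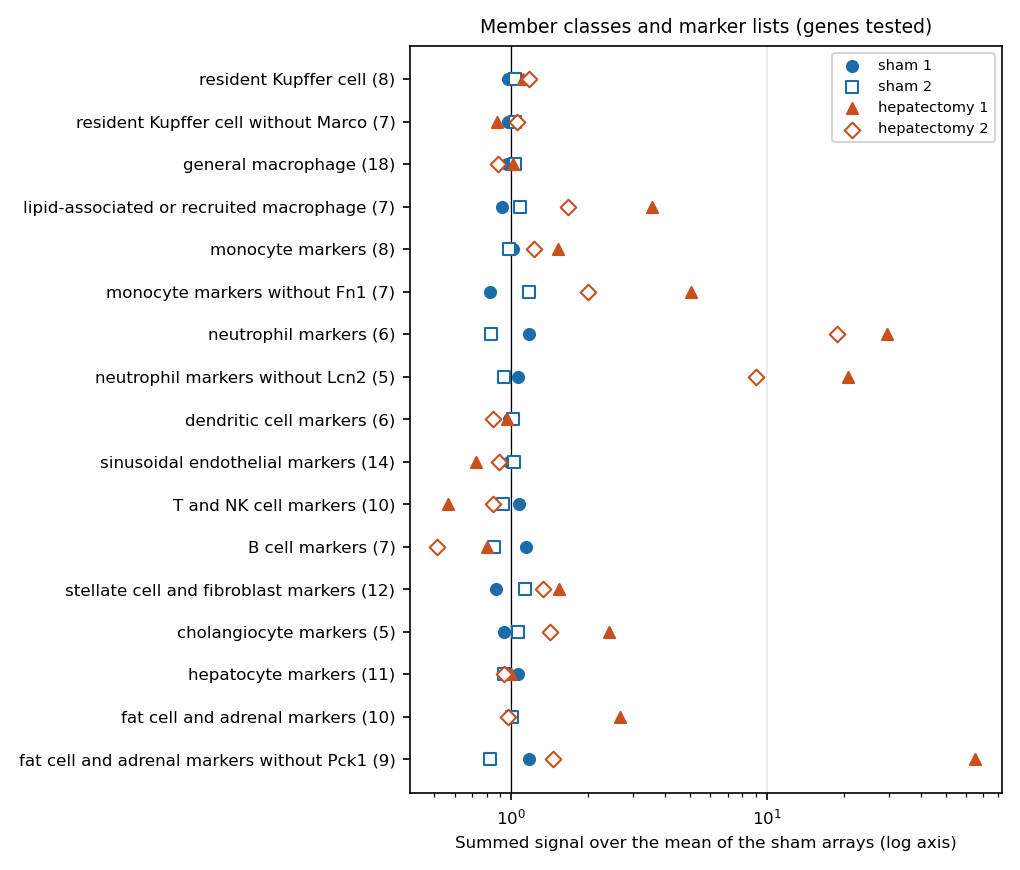
Summed signal of the tested genes of each member class and of marker lists of other cells, each divided by the mean of the sham arrays (log axis), with the number of genes in brackets, and again without the named gene for 4 of them. The lipid-associated or recruited class and the fat cell and adrenal markers are highest on hepatectomy array 1, the latter at 64.9 times the sham mean without Pck1, whereas the neutrophil markers are high on both hepatectomy arrays.

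The signals that act on macrophages were read from further lists. Of 10 macrophage growth factor and receptor genes tested, limma called 0, with 4 at an unadjusted p under 0.05 (19.9% of all genes) and a median log2 fold change of 0.26. Csf1, the main ligand of Csf1r, gave 231 and 221 on the sham arrays against 365 and 352 on the hepatectomy arrays. Both hepatectomy signals were higher (0.65 ± 0.23, adjusted p 0.197), in the direction opposite to its receptor. The other ligand, Il34, gave 32.8 and 27.1 against 30.7 and 26.8 (-0.04 ± 0.39, adjusted p 0.975).

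Of 19 transcription factor genes, 2 were called higher and 0 lower, beside 3.57% and 1.09% of all genes, with a median of -0.14. Id3, a factor that Kupffer cells need, gave 1768 and 1224 on the sham arrays against 5034 and 3634 on the hepatectomy arrays (1.53 ± 0.22, adjusted p 0.0105). Across the alternative settings the adjusted p of Id3 in limma reached 0.126, so its call did not hold in all of them. Its relative Id1, which sinusoidal endothelium and hepatocytes also make, gave 163 and 165 against 1181 and 1177 (2.79 ± 0.20, adjusted p 0.000722). These 2 genes are direct targets of BMP signalling and are made by many liver cells, so the tissue signal does not assign them to macrophages. Spi1, which encodes PU.1, gave 70.0 and 99.0 against 125 and 95.7, and Nr1h3, the oxysterol receptor LXR alpha of Kupffer cells, gave 1491 and 1563 against 1536 and 1918. Neither passed the test (0.36 ± 0.33 and 0.17 ± 0.17, adjusted p 0.66 and 0.7).

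Genes of macrophage activation gave no call among 16 tested, with 6 at an unadjusted p under 0.05 in limma (19.9% of all genes) and a median of 0.34. Il6, Nos2 and Osm stayed under the control level on all arrays. Tnf gave 15.4 and 22.3 on the sham arrays against 48.2 and 7.99 on the hepatectomy arrays and was too dim to test, and Il1b gave 116 and 216 against 211 and 217 (0.41 ± 0.33, adjusted p 0.605). Both overlapped between the groups.

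Among 10 monocyte chemokine and chemokine receptor genes, 1 was called higher and 0 lower, with a median of 0.62. Ccl6, a myeloid chemokine, gave 1421 and 1463 on the sham arrays against 3600.3 and 2771 on the hepatectomy arrays (1.13 ± 0.17, adjusted p 0.0122). The call was lost without sham array 1 (adjusted p 0.0818) or sham array 2 (0.059). Ccl2, the ligand of Ccr2, gave 40.7 and 51.6 against 1299 and 145. Both hepatectomy arrays were higher, and array 1 was far above array 2, as for its receptor (3.04 ± 0.82, adjusted p 0.0998).

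Genes of uptake and digestion were called about as often as all genes. Of 24 phagocyte receptor and efferocytosis genes 1 was called higher, and of 23 lysosome and lipid handling genes likewise 1, beside 3.57% of all genes, with 0 lower in both and medians of 0.12 and 0.03. Gas6, which bridges dying cells to the receptors Axl and Mertk, gave 563 and 643 on the sham arrays against 1291 and 1116 on the hepatectomy arrays (0.99 ± 0.19, adjusted p 0.0316). Plin2, the coat protein of lipid droplets, which hepatocytes make in quantity, gave 7005 and 6481 against 11254 and 9548 (0.62 ± 0.12, adjusted p 0.0361). Both calls were lost without sham array 1 (adjusted p 0.255 and 0.085), sham array 2 (0.122 for both) or hepatectomy array 1 (0.0507 and 0.135).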

How the data were processed

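Mouse liver RNA was measured on 4 Affymetrix arrays, 2 per group. The intensities, 1 signal per probe set and array, were deposited by the authors on a linear scale. GCOS 1.4 is the software named per the submitters' processing notes. Its settings, detection calls and the scan dates are not in the labels used here, and no batch was tested. Of 45101 probe sets 64 controls were left out. The platform annotation gave 1 symbol to 34945 probe sets, several to 932 and none to 9160, and only those with 1 named a gene.

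The log2(signal + 8.57) values, with the offset at the 20th percentile, were fitted with lmFit and eBayes (trend) of limma 3.58.1 in R 4.3.3, two-sided, with Benjamini-Hochberg adjustment. Adding the offset understates fold changes of dim genes. A filter on the mean (40th percentile, 5.09) kept 27022 probe sets. Residual degrees of freedom were 2 and prior degrees of freedom 6.02. The script was tested on simulated data.

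The control level of 20.4, and the genes left out of summed signals, were chosen after seeing the data. Members and lists were chosen with earlier results of these data known. Values per array are given for every member with a probe set. Beyond the members they are given for Csf1, Il34, Spi1, Nr1h3, Ccl2, Tnf, Il1b, some called genes of the lists and a few genes not called. They are not given for the called genes S100a6, S100a8, S100a9, Acta2, Col3a1 and Col1a2, and for Lcn2 only on the hepatectomy arrays. Called genes of the erythroid and proliferation marker lists are not described here. Tgfb1, Csf3r, Chil3, Fcgr2b, Spp1 and Pck1 stood in 2 lists each. The same-numbered arrays were not taken as pairs. There were 15 alternative settings and 2 added after seeing the data. The small number of arrays limits the precision.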

Additional observations from a re-analysis of the deposited data

How the results depend on the processing

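Marco was called higher in every alternative with all 4 arrays (adjusted p up to 0.0384 in limma). Its log2 fold change ran from 2.98 to 3.91 when single arrays were left out. Trem2 was called wherever it was tested on all 4 arrays (adjusted p up to 0.0488 in limma), also with no filter on dim probe sets. No called member changed direction. Beside the 2 members called higher, the count was 1 with an offset of 1, where Trem2 fell under the filter, and 1 without probe sets whose names end in _x_at, _s_at or _a_at, where that of Trem2 was removed. It was 4 with a replicate block, which adds Cd9 and Lgals3, and 3 with arrays centred, which adds Lgals3. With the filter at the 60th percentile it was 2, Marco and Lgals3, as Trem2 was not tested there. Leaving out single arrays gave 1 to 6, and 7 without hepatectomy array 2 when the tested probe sets were kept, a setting chosen after seeing the data. The replicate numbers name 2 pairs only, whose deviations correlated at 0.10, so they were not taken as pairs, and the block left Csf1r and Mrc1 called. Beside the 2 members called lower, limma called 0 with no filter on dim probe sets, 0 with each array centred on its median and 0 with no trend, with 4, 4 and 3 at an unadjusted p under 0.05. It called 1, Csf1r, when probe sets of a gene were averaged, and the calls of Csf1r and Mrc1 were lost without sham array 1, sham array 2 or hepatectomy array 1. The cause was not tested. The median of the lipid-associated or recruited class, 1.07, ran from 0.32 to 2.01 when single arrays were left out, the lowest without hepatectomy array 1. These medians cover fewer genes, 6 without hepatectomy array 1, where Trem2 fell under the filter, and 5 without array 2. With the 7 tested genes kept, a setting added after seeing the data, the median was 0.54 without array 1 and 2.01 without array 2. The median of the resident class, -0.09, was -0.18 with arrays centred. Signals near the control level, those of Itgam, Cx3cr1, Gpnmb and sham Trem2 among them, limit what can be said of those genes.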

Other observations

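Markers of lymphocytes and of matrix-making cells were read on the same arrays. Of 10 T and NK cell genes tested, 1 was called lower, Gzma, a protease of cytotoxic granules, with 152 and 146 on the sham arrays against 49.1 and 47.8 on the hepatectomy arrays (-1.46 ± 0.30, adjusted p 0.041 by limma). That call was lost without sham array 1 (adjusted p 0.286) or sham array 2 (0.199). Of 12 stellate cell and fibroblast genes, 4 were called higher, Col1a1, Acta2, Col3a1 and Col1a2. The list did not move as a whole, with a median of 0.48, 9 genes above 0 and 3 below. Lrat gave 1010 and 1257 on the sham arrays against 482 and 919 on the hepatectomy arrays. Reln gave 1807 and 2111 against 1200 and 1672, and neither was called. Without sham array 1 the calls of Acta2 (adjusted p 0.0734), Col3a1 (0.0895) and Col1a2 (0.215) were lost, without sham array 2 that of Col1a2 (0.0944), and with no trend all 4. Col1a1, a chain of fibrillar collagen, gave 175 and 361 against 2079 and 1248 (2.64 ± 0.36, adjusted p 0.00826). The 6 dendritic cell genes tested had a median log2 fold change of -0.42 and the 7 B cell genes one of -0.74, with 0 called in either list and 2 and 3 at an unadjusted p under 0.05, beside 19.9% of all genes.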
